A study of Homo sapiens with 2 samples.

Results

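The genes of caveolae were followed between SKHEP1 and HepG2, a pair of human liver cancer lines with 1 RNA-seq library each. The 8 genes, chosen by name with earlier results of these libraries known, are the caveolins CAV1, CAV2 and CAV3, the cavins PTRF, SDPR and PRKCDBP (now called CAVIN1, CAVIN2 and CAVIN3), and the membrane-shaping genes EHD2 and PACSIN2, out of 57820 genes listed. SKHEP1 is labelled as endothelial cells and HepG2 as hepatocellular carcinoma. Both are labelled WT for genotype, were grown in the same medium with fetal bovine serum, and are immortal lines, so a difference between them is a difference between 2 lines and not between endothelial cells and hepatocytes in general. Poly(A) RNA was sequenced from stranded libraries, which held 19940557 expected counts (reads assigned to genes by RSEM) in SKHEP1 and 22477757 in HepG2.

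Caveolae are small flask-shaped pits of the plasma membrane, abundant in endothelial cells, fibroblasts, adipocytes and muscle and sparse in hepatocytes. Caveolins insert into the inner leaflet as oligomers, cavins bind from the cytosol as a coat, and EHD2 and PACSIN2 act on the curvature and neck of the pit. Caveolae buffer membrane tension, take part in lipid handling and hold signalling receptors.

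With a single library per line there was no test of any difference, and the ratios below describe these libraries only. In such bulk RNA, fewer expressing cells and less RNA per cell cannot be told apart. Ratios are of counts-per-million (CPM), SKHEP1 over HepG2 unless a sentence says otherwise. Intervals at 95% are exact and cover counting error only. The true counting error may be wider, because the reads carry no molecular identifiers and PCR copies count as separate reads. Where a count was 0, 3 counts per library was taken as the floor, which is 0.148 CPM in SKHEP1 and 0.135 CPM in HepG2. A ratio against that floor is written as at least a fold. It bounds the observed ratio and is no 95% limit, which is smaller, such as 197 for PRKCDBP where the floor gives 243. A gene was compared when it reached 10 counts in either library and called higher at a ratio of at least 4. For calls and log2 ratios, every count under 3 was set to 3, while printed ratios use the counts as they stand.

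Of the 8 genes, 7 could be compared, 6 were at least 4-fold higher in SKHEP1, none was at least 4-fold higher in HepG2, and PACSIN2 lay within 4-fold. Of all 15436 genes compared, 16.5% were called higher in SKHEP1 and 13.0% were called higher in HepG2. The genes were chosen with this contrast known, so nothing is read from that count.

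The promoters of 4 of the genes are printed to set the neighbouring pair CAV1 and CAV2, nearly absent from HepG2, beside SDPR, which was lower but present in HepG2, and PACSIN2, which was similar in both lines. Each is the 250 bases before the RefSeq start, 5′ to 3′ on the gene's strand, in build GRCh38.p14, and capitals mark matches on either strand to the motifs described next.
CAV1 promoter, chr7:116524759-116525008, plus strand: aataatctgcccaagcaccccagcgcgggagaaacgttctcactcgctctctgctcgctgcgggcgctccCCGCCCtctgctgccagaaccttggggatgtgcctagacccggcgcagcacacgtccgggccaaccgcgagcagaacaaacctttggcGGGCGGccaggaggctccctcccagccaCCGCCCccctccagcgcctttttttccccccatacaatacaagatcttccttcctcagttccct
CAV2 promoter, chr7:116499488-116499737, plus strand: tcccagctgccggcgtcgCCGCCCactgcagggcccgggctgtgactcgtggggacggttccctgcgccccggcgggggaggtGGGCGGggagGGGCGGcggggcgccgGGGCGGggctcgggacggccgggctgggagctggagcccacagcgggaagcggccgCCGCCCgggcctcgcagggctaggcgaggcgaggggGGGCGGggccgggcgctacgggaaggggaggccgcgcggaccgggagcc
SDPR promoter, chr2:191847089-191847338, minus strand: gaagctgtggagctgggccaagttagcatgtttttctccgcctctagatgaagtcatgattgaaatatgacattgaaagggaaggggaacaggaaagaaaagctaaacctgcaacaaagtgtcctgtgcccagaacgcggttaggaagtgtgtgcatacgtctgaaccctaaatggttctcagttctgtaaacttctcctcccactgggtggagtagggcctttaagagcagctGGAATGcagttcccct
PACSIN2 promoter, chr22:42959900-42960149, minus strand: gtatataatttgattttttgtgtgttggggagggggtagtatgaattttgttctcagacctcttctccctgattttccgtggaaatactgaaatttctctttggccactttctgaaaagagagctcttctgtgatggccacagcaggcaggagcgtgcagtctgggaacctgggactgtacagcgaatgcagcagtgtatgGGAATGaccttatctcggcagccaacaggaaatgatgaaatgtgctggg

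Of the 8 genes, 6 had an entry in the RefSeq promoter table, PTRF and PRKCDBP being the others. The motifs searched were the GC box bound by Sp1 (GGGCGG), the TATA box (TATAAA), the CCAAT box (CCAAT), an AP-1 site (TGACTCA), a TEAD site (CATTCC) and an E-box (CACGTG), and none of these overlapped another in the printed windows. CAV2 held 6 GC boxes and CAV1 held 3, and EHD2 held 1, while SDPR, PACSIN2 and CAV3 held 0. At least 1 GC box stood in 42.3% of 27305 promoter windows of the same length. CAV2 had 35 CpG dinucleotides, EHD2 20 and CAV1 18, against a median of 11 over all windows, while CAV3 had 5 and SDPR and PACSIN2 had 4 each. The share of windows with fewer CpG was 94.4% for CAV2, 67.9% for EHD2 and 63.5% for CAV1. The single TEAD match in SDPR and the single one in PACSIN2 compare with 11.9% of all windows holding at least 1. CAV3 held the single CCAAT match, and the TATA box, AP-1 and E-box letters stood in none of the 6 windows. These are letter matches in a short window and were not tested as sites. Each gene has 1 window here, and its other starts were not examined. The bases just after the start were found in 1 PACSIN2 transcript, 2 CAV2 transcripts and 5 CAV1 transcripts of a reference set.

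CAV1 and CAV2 were expressed in SKHEP1 and nearly absent from HepG2, and CAV3 was found in neither line. CAV1, which builds the caveolar coat outside muscle, had 43159 counts in SKHEP1, against 1 in HepG2. That is 2136 CPM (2116 to 2156) in SKHEP1 and 0.0451 CPM (0.00114 to 0.251) in HepG2, for a ratio of 47385 (8504 to 1871638). Its deposited TPM, a level scaled by transcript length, was 1459 in SKHEP1 and 0.03 in HepG2, and by TPM it ranked 117 among all listed genes in SKHEP1. CAV1 was therefore an abundant transcript in one line and at a single read in the other, where its level is known only to within the counting interval.

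CAV2, which forms mixed oligomers with CAV1 and depends on it to reach the cell surface, had 3796 counts in SKHEP1, against 3 in HepG2. The CPM values were 188 (182 to 194) in SKHEP1 and 0.135 (0.0279 to 0.395) in HepG2, for a ratio of 1389 (475 to 6739). CAV3, the caveolin of skeletal and cardiac muscle, had 0 counts in SKHEP1, and 0 in HepG2, which allows up to 0.148 CPM in SKHEP1 and 0.135 CPM in HepG2. In SKHEP1 the summed caveolin TPM was 1635, of which CAV1 took 89.2% and CAV2 10.8%, so CAV1 stood 8.27-fold above CAV2 per transcript length. In HepG2 the summed caveolin TPM was 0.13.

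**Figure D1:**
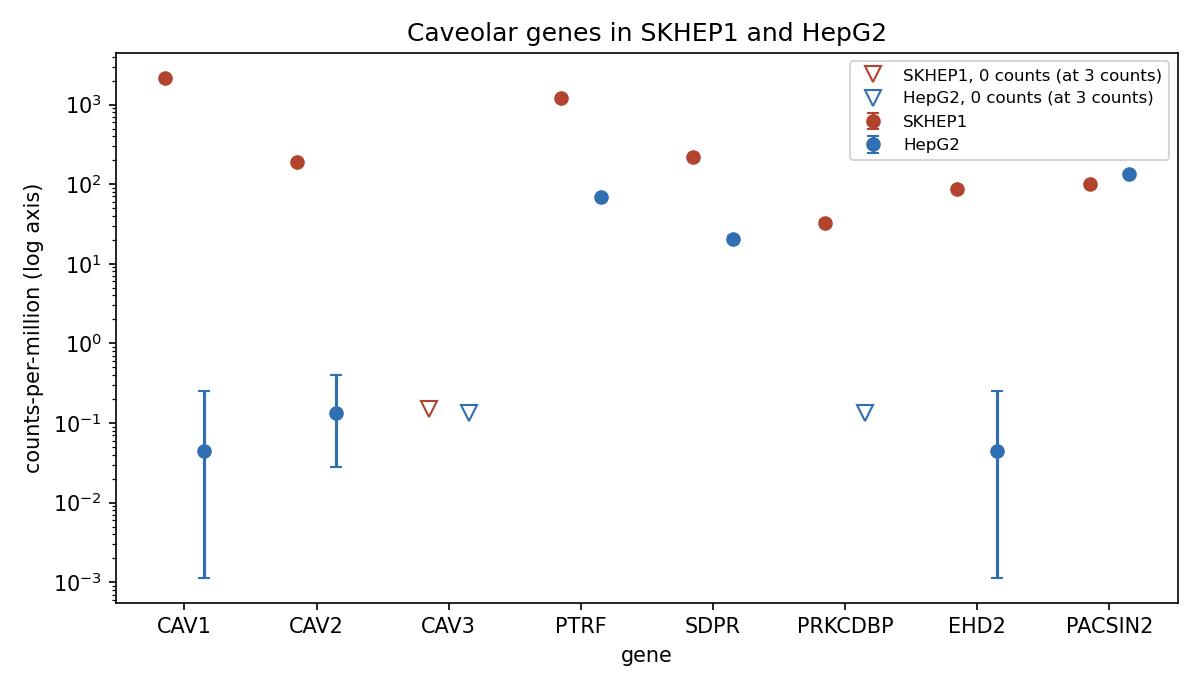
Level of each caveolar gene in counts-per-million on a log axis, SKHEP1 in red and HepG2 in blue, 1 library each, with exact 95% Poisson intervals (smaller than the points for most) and open triangles at the level of 3 counts where a library had 0. CAV1, CAV2, PRKCDBP and EHD2 are at 0 to 3 counts in HepG2, PTRF and SDPR are present in both lines, and PACSIN2 is the only gene of the 8 drawn higher in HepG2.

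Unlike the caveolins, PTRF and SDPR were expressed in both lines. PTRF, the cavin without which caveolae do not form, had 24759 counts in SKHEP1, against 1510 in HepG2. Its level was 1225 CPM (1210 to 1241) in SKHEP1 and 68.1 CPM (64.7 to 71.6) in HepG2, for a ratio of 18.0 (17.1 to 19.0). SDPR, a phosphatidylserine-binding cavin that promotes membrane curvature, had 4477 counts in SKHEP1, against 452 in HepG2. The levels were 222 CPM (215 to 228) in SKHEP1 and 20.4 CPM (18.5 to 22.3) in HepG2, for a ratio of 10.9 (9.87 to 12.0). The remaining HepG2 counts of both genes were well above the floor.

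PRKCDBP, the cavin that binds protein kinase C delta, was the cavin not detected in HepG2. It had 665 counts in SKHEP1, or 32.9 CPM (30.5 to 35.5), and 0 in HepG2, and against the floor it was at least 243-fold higher in SKHEP1. In SKHEP1 the cavins summed to 706 TPM, of which PTRF took 75.8%, SDPR 16.4% and PRKCDBP 7.84%. In HepG2 they summed to 39.1 TPM, of which PTRF took 73.6% and SDPR 26.4%, with PRKCDBP listed at 0. The summed cavin TPM was thus 18.1-fold higher in SKHEP1, while the PTRF to SDPR ratio was 4.62 in SKHEP1 and 2.79 in HepG2.

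The remaining genes, EHD2 and PACSIN2, went different ways. EHD2, a dynamin-like ATPase that holds caveolae at the surface, had 1770 counts in SKHEP1, against 1 in HepG2, with 87.6 CPM (83.6 to 91.8) in SKHEP1 and 0.0451 CPM (0.00114 to 0.251) in HepG2. Its ratio was 1943 (348 to 76799). PACSIN2, an F-BAR protein that bends membranes in caveolae and in other endocytic pits, had 2041 counts in SKHEP1, against 3012 in HepG2. At 101 CPM (96.7 to 105) in SKHEP1 and 136 CPM (131 to 141) in HepG2, it was 1.34-fold higher in HepG2 (1.27 to 1.42). By the deposited TPM, PACSIN2 was at 61.6 in SKHEP1 and 69.8 in HepG2.

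By TPM, a scale on which genes can be compared, the order in SKHEP1 was CAV1 (1459), PTRF (535), CAV2 (176), SDPR (116), PACSIN2 (61.6), PRKCDBP (55.4) and EHD2 (42.3). In HepG2 the order was PACSIN2 (69.8), PTRF (28.8), SDPR (10.3), and then CAV2 (0.10), EHD2 (0.07) and CAV1 (0.03), which at 3, 1 and 1 counts cannot be ordered. CAV1, the highest of the genes in SKHEP1, was thus among those at 3 counts or fewer in HepG2. The 8 genes together took 0.405% of the SKHEP1 counts and 0.0222% of the HepG2 counts.

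**Figure D2:**
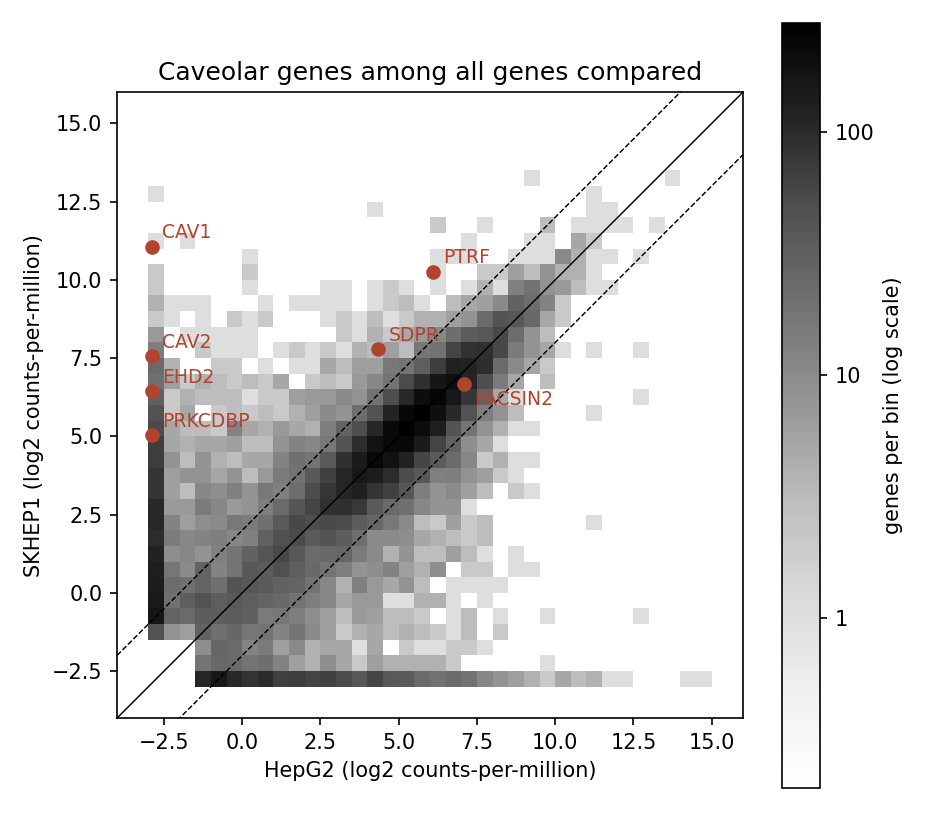
All 15436 genes compared, as a density of genes in bins of log2 counts-per-million in SKHEP1 (vertical) against HepG2 (horizontal), 1 library each, with counts under 3 set to 3; the solid line marks equal levels and the dashed lines a 4-fold ratio. CAV1, CAV2, EHD2 and PRKCDBP lie on the left edge, at or under the floor of 3 counts in HepG2, PTRF and SDPR lie above the upper dashed line, and PACSIN2 lies close to the line of equal levels.

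The labels were set beside marker genes. Of 10 endothelial markers, 5 had 0 counts in SKHEP1, among them the VEGF receptor KDR, the transcription factor ERG and PLVAP, a protein of caveolar and fenestral diaphragms, and VE-cadherin (CDH5) had 1 count, so the endothelial label of SKHEP1 is not borne out by these transcripts. The 10 markers summed to 1.49 TPM in SKHEP1 and 7.14 TPM in HepG2. Only 3 of them were compared, and of these ESAM, at 16 counts in SKHEP1, against 144 in HepG2, was the only one at least 4-fold apart. Of 8 hepatocyte markers, all were at least 4-fold higher in HepG2, beside 13.0% of all genes compared, and 7 were at 0 counts in SKHEP1. The sums were 95.5 TPM in SKHEP1, all from SERPINA1, and 47535 TPM in HepG2. Of 8 fibroblast and mesenchymal markers, 6 were compared and 5 were called higher in SKHEP1, or 83.3% beside 16.5% of all genes compared. These 8 markers summed to 7007 TPM in SKHEP1, mostly vimentin (VIM), and 6.40 TPM in HepG2, where 5 were at 0. The 6 caveolar genes higher in SKHEP1 thus went with the mesenchymal markers and against the hepatocyte markers, whose part in the result was not tested.

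Marker lists of other tissues rich in caveolae gave mixed values. Of 8 muscle markers, 5 were at 0 in SKHEP1 and 5 in HepG2, desmin (DES), MYOD1 and MYOG in both, and the list summed to 177 TPM in SKHEP1 and 25.8 TPM in HepG2. Most of the SKHEP1 sum came from the slow skeletal troponin TNNT1, with 1448 counts in SKHEP1, against 7 in HepG2, and most of the HepG2 sum from skeletal actin ACTA1, with 1 count in SKHEP1, against 450 in HepG2. Of 6 adipocyte markers, 3 were compared and all 3 were called higher in HepG2, beside 13.0% of all genes compared. Their list summed to 1.44 TPM in SKHEP1 and 21.0 TPM in HepG2, and ADIPOQ and LEP were at 0 in both.

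Other proteins that act at caveolae were taken from a list of accessory genes. Of 16 accessory genes, 14 were compared, 4 were at least 4-fold higher in SKHEP1, none was so in HepG2 and 10 were under 4-fold apart, for a median log2 ratio of 0.03, beside 0.03 over all genes compared. The 28.6% higher in SKHEP1 stands beside 16.5% of all genes compared, and the 0% higher in HepG2 beside 13.0%. EHD3, an EHD2 paralogue of endosomes, had 807 counts in SKHEP1, against 33 in HepG2, for a ratio of 26.8 (19.0 to 39.3). ROR1, a receptor reported to hold CAV1 and PTRF together, had 485 counts in SKHEP1, against 45 in HepG2, for a ratio of 11.8 (8.71 to 16.4). FLNA, the actin crosslinker filamin A that anchors caveolae to stress fibres, was 4.28-fold higher in SKHEP1 (4.21 to 4.35), at 63487 counts in SKHEP1, against 16292 in HepG2. DNM1, a dynamin, was the remaining one, at 18 counts in SKHEP1, against 1 in HepG2, and the interval of its ratio of 19.8 (3.12 to 823) reaches below 4.

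The genes of the same list furthest towards HepG2 were SRC, PACSIN3 and FYN, all within 4-fold. SRC, the kinase that phosphorylates CAV1, was 3.46-fold higher in HepG2 (3.12 to 3.83), PACSIN3 2.67-fold (2.42 to 2.95) and FYN 2.14-fold (1.91 to 2.39). MURC, the muscle cavin now called CAVIN4, had 20 counts in SKHEP1, against 29 in HepG2, and the interval of its ratio, 0.41 to 1.39, includes equal levels. The EHD2 paralogues EHD1 and EHD4 were 2.83-fold (2.64 to 3.04) and 3.18-fold (2.87 to 3.52) higher in SKHEP1.

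For genes of CAV1 turnover and of caveolar lipids, the shares called higher in SKHEP1, 16.7% and 15.4%, were near the 16.5% of all genes compared. Of 6 turnover genes, 1 was at least 4-fold higher in SKHEP1, with a median log2 ratio of 0.53, beside 0.03 over all genes compared. ANKRD13B, a ubiquitin-binding protein, had 229 counts in SKHEP1, against 33 in HepG2, and its relative ANKRD13A was 3.06-fold higher in SKHEP1 (2.86 to 3.29). UBXN6, the VCP cofactor that targets CAV1, was 1.57-fold higher in SKHEP1 (1.41 to 1.74), while VCP itself, at 1.38-fold (1.35 to 1.42), was higher in HepG2, as was the ubiquitin ligase ZNRF1 at 1.90-fold (1.72 to 2.12). Of 13 genes for phosphatidylserine, sphingomyelin and cholesterol, 2 were called higher in SKHEP1 and the other 11 stayed under 4-fold, for a median log2 ratio of -0.14. The sphingomyelin synthase SGMS2 was 6.45-fold higher in SKHEP1 (5.29 to 7.93) and the acid sphingomyelinase SMPD1 4.22-fold (3.62 to 4.94), while SGMS1 was 2.19-fold higher (1.93 to 2.49). On the other side, the cholesterol exporter ABCA1 was higher in HepG2 by 1.96-fold (1.85 to 2.09), and SCAP, the escort protein of the SREBP factors, by 1.58-fold (1.48 to 1.70).

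**Figure D3:**
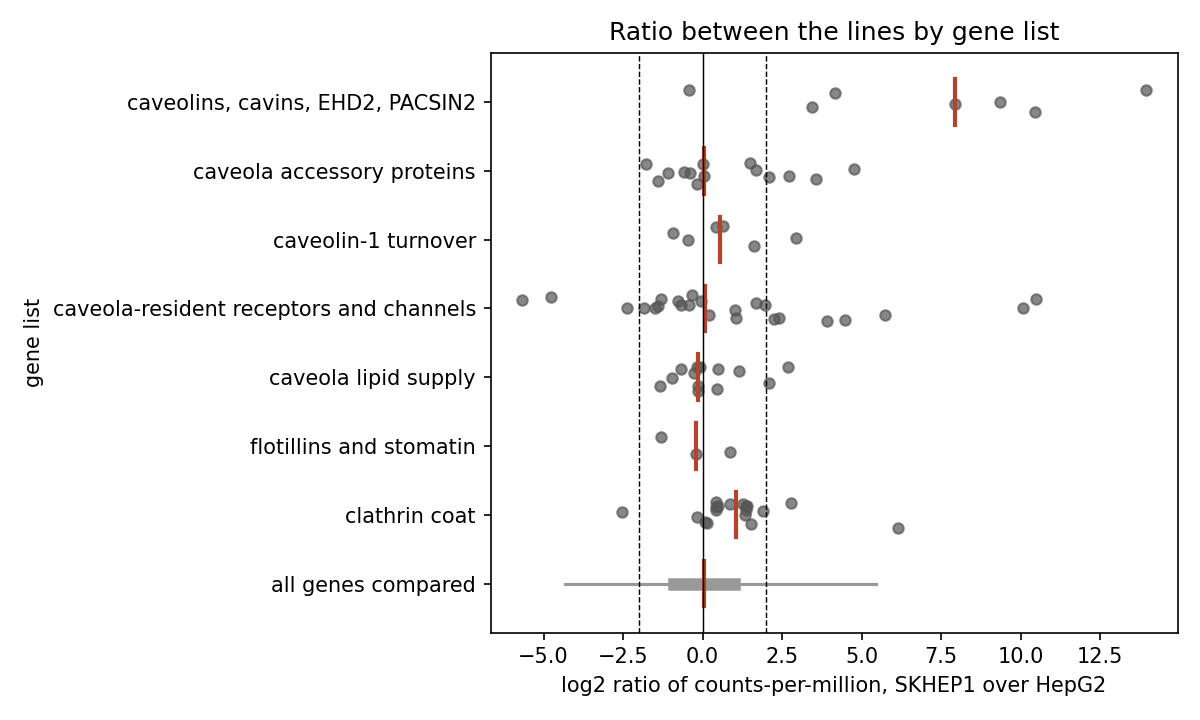
Log2 ratio of counts-per-million, SKHEP1 over HepG2, for each compared gene of the caveolar genes and of 6 related lists (grey points, spread vertically for legibility), with the median of each list as a red bar and dashed lines at a 4-fold ratio; the lowest row gives the 5th to 95th percentile (thin) and the 25th to 75th percentile (thick) of all genes compared. The caveolar genes have a median of 7.93, which their choice fixes, while the medians of the other lists lie between -0.22 and 1.06.

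Among receptors and channels known from caveolae, genes were called higher in each line. Of 30, 24 were compared, 7 were at least 4-fold higher in SKHEP1, 3 were so in HepG2 and 14 were under 4-fold apart, for a median log2 ratio of 0.08. The share higher in SKHEP1 was 29.2%, beside 16.5% of all genes compared, and the share higher in HepG2 was 12.5%, beside 13.0%. KCNMA1, a large-conductance potassium channel, had 3879 counts in SKHEP1, against 0 in HepG2, at least 1420-fold higher. S1PR1, the sphingosine-1-phosphate receptor, had 2936 counts in SKHEP1, against 0 in HepG2, at least 1074-fold higher. PLAUR, the urokinase receptor, had 1589 counts in SKHEP1, against 33 in HepG2, for a ratio of 52.9 (37.5 to 77.1).

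The 3 genes of this list called higher in HepG2 were SLC2A4, CD36 and INSR. SLC2A4, the insulin-responsive glucose transporter, had 4 counts in SKHEP1, against 226 in HepG2, and was 51.5-fold higher in HepG2 (19.8 to 190.5). The fatty acid receptor CD36 had 6 counts in SKHEP1, against 181 in HepG2. INSR, the insulin receptor, was 5.25-fold higher in HepG2 (4.50 to 6.15), at 194 counts in SKHEP1, against 1118 in HepG2. NOS3, the endothelial nitric oxide synthase that CAV1 inhibits, was low in both lines, with 49 counts in SKHEP1, against 132 in HepG2.

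The other membrane-domain and endocytic coats were present in both lines. The flotillins and stomatin, scaffolds of other membrane domains, all lay within 4-fold, with FLOT1 1.82-fold higher in SKHEP1 (1.72 to 1.92), FLOT2 2.47-fold higher in HepG2 (2.29 to 2.67) and STOM 1.17-fold higher in HepG2 (1.09 to 1.24). Their median log2 ratio was -0.22. Of 18 clathrin coat genes compared, 2 were called higher in SKHEP1, 1 was called higher in HepG2 and the other 15 were under 4-fold apart. The median log2 ratio of the clathrin coat was 1.06, beside 0.03 over all genes compared, so it lay towards SKHEP1 though few genes passed 4-fold. The shares called higher, 11.1% in SKHEP1 and 5.56% in HepG2, were below the 16.5% and 13.0% of all genes compared. BIN1, a membrane-curving protein, was 71.4-fold higher in SKHEP1 (46.0 to 117.2), the cargo adaptor DAB2 6.89-fold (6.05 to 7.86) and the adaptor subunit AP2B1 3.72-fold (3.59 to 3.87). CLTA, a clathrin light chain, was higher in HepG2 by 1.14-fold (1.08 to 1.21). FCHO1, a membrane-bending starter of clathrin pits at 8 counts in SKHEP1, against 51 in HepG2, was the gene past 4-fold on that side.

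Gene order was examined as a property that the choice of genes had not used, from RefSeq in build GRCh38.p14. CAV1 and CAV2 are adjacent on chromosome 7, PTRF lies on chromosome 17, SDPR on 2, PRKCDBP on 11, EHD2 on 19, PACSIN2 on 22 and CAV3 on 3. The nearest 3 protein-coding genes on each side of the 8 genes gave 42 distinct neighbours, of which 32 were compared. Of these, 9 were at least 4-fold higher in SKHEP1, 2 were so in HepG2 and 21 were under 4-fold apart, for a median log2 ratio of 0.76, beside 0.03 over all genes compared. The share higher in SKHEP1 was 28.1%, beside 16.5% of all genes compared. Neighbours were taken by gene order whatever their distance, and DNAH7 lies 3891 kb from SDPR.

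The genes directly beside the CAV2 and CAV1 pair were expressed in both lines. TES, the next gene before CAV2 and a focal adhesion protein, had 553 counts in SKHEP1, against 590 in HepG2, for a ratio of 1.03 (0.91 to 1.16). MET, the hepatocyte growth factor receptor next after CAV1, had 8863 counts in SKHEP1, against 2569 in HepG2, for a ratio of 3.79 (3.62 to 3.96). Further along, CAPZA2 had a ratio of 1.44 (1.37 to 1.52) and ST7 one of 1.19 (1.06 to 1.33). On the far side of TES, TFEC had 14 counts in SKHEP1, against 0 in HepG2, at least 5.12-fold higher. MDFIC, a transcription regulator 1480 kb from CAV2, had 1656 counts in SKHEP1, against 0 in HepG2, at least 606-fold higher.

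PTRF and EHD2 also stood apart from their neighbours. Beside PTRF, all of STAT5B, STAT5A, STAT3, ATP6V0A1, NAGLU and HSD17B1 lay within 4-fold, with STAT3 at 3531 counts in SKHEP1, against 3677 in HepG2. Beside EHD2, the compared genes NAPA, GLTSCR1, GLTSCR2 and SEPW1 had ratios between 1.12 and 1.85. Around PACSIN2, ARFGAP3, TTLL1 and MCAT lay within 4-fold, as PACSIN2 did, and A4GALT had 22 counts in SKHEP1, against 1 in HepG2, with a ratio of 24.2 (3.90 to 997).

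The surroundings of the other genes were more varied. Next to CAV3, at 0 in both lines, the oxytocin receptor OXTR had 10073 counts in SKHEP1, against 17 in HepG2, for a ratio of 650.5 (406 to 1117), and SSUH2 had 3 counts in SKHEP1, against 791 in HepG2. LMCD1 and RAD18, also near CAV3, lay within 4-fold. Among the neighbours of SDPR, NABP1, SLC39A10 and DNAH7 were higher in SKHEP1, by 11.8-fold (10.5 to 13.3), 8.01-fold (7.26 to 8.86) and at least 7.69-fold. NABP1 lies 147 kb from SDPR, but SLC39A10 lies 3766 kb and DNAH7 3891 kb away. Near PRKCDBP, the already described SMPD1 and APBB1, at 31.9-fold (20.7 to 52.0), were higher in SKHEP1, FAM160A2 was similar, and HPX, the plasma heme carrier hemopexin, had 1 count in SKHEP1, against 633 in HepG2.

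**Figure D4:**
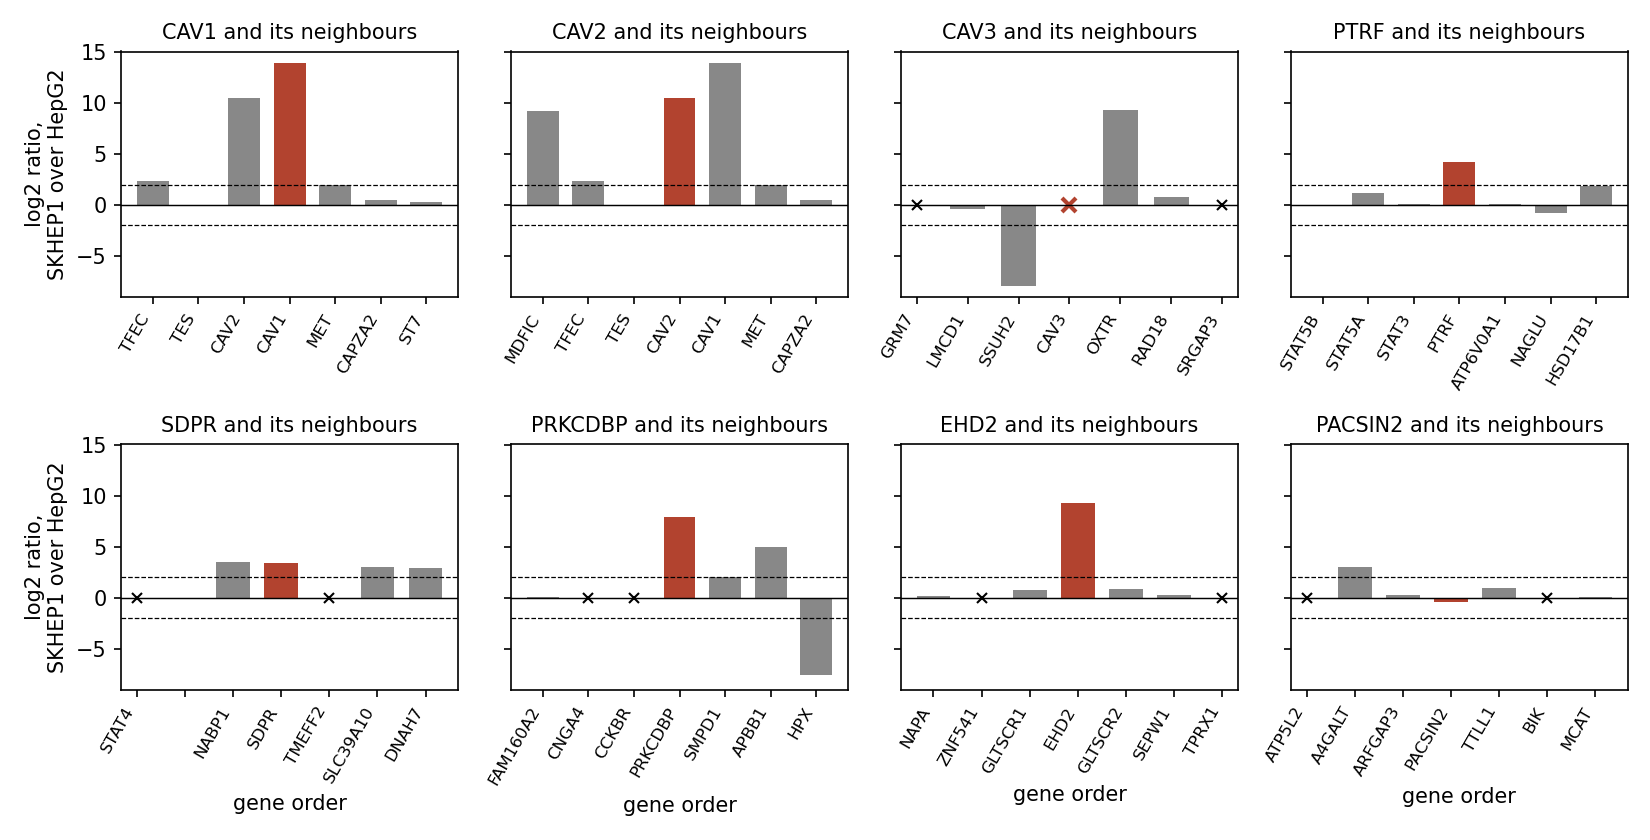
Log2 ratio of counts-per-million, SKHEP1 over HepG2, for each caveolar gene (red) and the 3 nearest protein-coding genes on each side (grey) in RefSeq gene order, with counts under 3 set to 3, dashed lines at a 4-fold ratio and crosses for genes under 10 counts in both libraries; an empty place without a name is a gene that is not reported. CAV1 and CAV2 stand high between TES at 1.03-fold and MET at 3.79-fold, and PTRF and EHD2 stand alone among neighbours within 4-fold.

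The genes closest to CAV1 in both levels were sought over the 2 libraries, as the distance in log2 CPM with counts under 3 set to 3. They were the membrane peptidase MME at a distance of 0.89, MSN (moesin, which ties actin to the membrane) at 0.93, the hyaluronan receptor CD44 at 1.01, the lactate dehydrogenase subunit LDHB at 1.06 and ANXA1 (annexin A1) at 1.36. ANXA1 had 16799 counts in SKHEP1, against 2 in HepG2. With 2 libraries, such closeness says only that a gene was high in SKHEP1 and near 0 in HepG2.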

How the data were processed

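RNA-seq gene tables of SKHEP1 and HepG2, 1 library each, were used, with groups from the labelled cell line. RNA was column-purified and made into stranded mRNA libraries, per the labels' protocols. Per the submitters' processing notes, cutadapt, STAR, RSEM and DESeq2 were used with build hg19; versions, gene annotation and strand setting are not stated there, and reads of overlapping genes may not be told apart. Per the file headers, the deposited tables hold RSEM expected counts, TPM, FPKM and isoform-weighted lengths.

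Expected counts were rounded and scaled to CPM of TMM effective library sizes (factors 1.01 for SKHEP1 and 0.99 for HepG2) with edgeR 4.0.16 in R 4.3.3. Poisson intervals for levels and conditional Clopper-Pearson intervals for ratios were computed with scipy 1.17.1 in Python 3.11.15. For log2 ratios and calls, counts under 3 were set to 3. Gene lists were written from textbook knowledge. The members and lists were chosen with earlier results of these data known. Besides the 8 genes, the text names up to 3 genes per list and direction, those furthest apart that have 100 counts or more, the 5 genes nearest to CAV1, and neighbours with 10 counts. DNM1, EHD1, EHD4, MURC, NOS3, FCHO1, SERPINA1, CDH5 and the markers named as at 0 were added after their values were seen, and some genes that the rule takes are not reported here. AQP1, listed under 2 identifiers, was taken by the identifier paired with that symbol in the gene name table. Of the alternatives, DESeq2 1.42.0 gave size factors. The ratio computation was checked on simulated counts.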

Additional observations from a re-analysis of the deposited data

How the results depend on the processing

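The count of 6 caveolar genes at least 4-fold higher in SKHEP1 was 6 under all 12 alternatives, which were total counts, DESeq2 size factors, TPM, FPKM, a prior count of 2, thinning of the HepG2 library, unrounded counts, limits of 2-fold and 8-fold, the lower counting bound, and minimums of 50 counts and 1 count. The count of all genes higher in SKHEP1 was 2549, and 3859 with a limit of 2-fold; the count higher in HepG2 was 2002, and 3614 with a limit of 2-fold or 1258 with 8-fold. No log2 ratio of a caveolar gene changed sign under 7 alternatives. The log2 ratio of PTRF lay between 4.13 and 4.21 and that of SDPR between 3.40 and 3.48. For EHD2 it lay between 7.60 and 9.38 and for CAV1 between 12.92 and 13.99, lowest from FPKM in both cases. In the log2 ratios from counts, the HepG2 count of 1 for each of these genes became 3. These log2 ratios therefore lie below the log2 of the ratios given above, 1943 for EHD2 and 47385 for CAV1. Before the log, 0.1 was added to each TPM and FPKM. That exceeds the HepG2 FPKM of 0.02 for CAV1 and 0.04 for EHD2, and their HepG2 TPM of 0.03 and 0.07. For CAV2 the HepG2 TPM was 0.10 and the FPKM 0.07, and for PRKCDBP both were 0. The TPM and FPKM ratios of these genes therefore depend on the added 0.1. Other parts of the difference were not tested. PACSIN2 was at -0.43 from CPM and at -0.18 from TPM, which divides by a longer weighted transcript in HepG2. With a minimum of 1 count, the median of receptors and channels was 0.20 and that of the clathrin coat 0.86. The median of accessory proteins, 0.03, ranged from -0.01 to 0.11. The TPM order was the same for all 8 genes from counts over effective length. No paired analysis was possible because each line has a single library. Depth limits the HepG2 level of CAV1, CAV2, EHD2 and PRKCDBP, known from 0 to 3 counts.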

Other observations

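The isoform-weighted transcript length that RSEM lists for a gene differed between the lines for PACSIN2. With 11 transcripts in the table, its length was 2797 bases in SKHEP1 and 3180 bases in HepG2, resting on 2041 counts in SKHEP1 and 3012 in HepG2. PTRF and SDPR have 1 transcript each in the table, of 3828 and 3229 bases, so their length is the same by construction. For CAV1, with 8 transcripts, the length was 2517 bases in SKHEP1, and for CAV2, with 15, it was 1884 bases; the HepG2 lengths of both rest on 3 counts or fewer and are not compared.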
